A study of Mus musculus with 53 samples.

Results

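The genes described are 9 lysosomal proteases of the cathepsin group (Ctss, Ctsc, Ctsz, Ctsh, Ctsl, Ctsb, Ctsf, Ctsd and Ctsa) and Cst3, which encodes the protease inhibitor cystatin C. They were taken by name from a fixed list, with symbols matched to the Ensembl identifiers of the files, and make up 10 of the 54393 genes counted in both brain regions. The libraries came from whole tissue of the central nucleus of the amygdala (CeA) and the medial prefrontal cortex (mPFC) of C57BL6/J mice at postnatal day 119. Mice were fed PLX5622, which blocks CSF1R, a receptor that microglia need to survive, or a control diet. The drug was given at 1200 mg/kg for 28 days before a phase that paired chronic intermittent ethanol exposure with 15% ethanol in a choice between bottles for 4 weeks, and the mice were killed 24 hours after they last had ethanol. Whether PLX5622 was still given during the ethanol phase is not stated. The labels split mice into dependent and non-dependent ones and do not say how the non-dependent mice were treated. The CeA libraries came from 4 PLX5622 non-dependent, 4 PLX5622 dependent, 6 control non-dependent and 5 control dependent mice. The mPFC libraries came from 9 PLX5622 non-dependent, 9 PLX5622 dependent, 7 control non-dependent and 9 control dependent mice.

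Cathepsins cut proteins inside the acidic lysosome. Most of them are cysteine proteases, whereas cathepsin D uses a pair of aspartates and cathepsin A is a serine carboxypeptidase, and microglia, the resident macrophages of the brain, are known for high levels of several of them. Cystatin C is secreted and blocks cysteine cathepsins, and in brain it is made by astrocytes as well as by microglia and the choroid plexus.

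Reads counted in genes numbered between 1062443 and 1968971 per CeA library and between 1531574 and 2607438 per mPFC library. The microglial genes Csf1r, P2ry12, Tmem119 and Cx3cr1 were at 0 to 6.76 CPM in the PLX5622 libraries of CeA, against 13.6 to 59.9 CPM in the control libraries there. In mPFC they were at 0 to 10.5 CPM with PLX5622 and at 11.3 to 47.7 CPM on control diet. Of the region markers Tbr1, a transcription factor of cortical excitatory neurons, had a median of 54.8 CPM in CeA and 178 CPM in mPFC. The enkephalin gene Penk had a median of 426 CPM in CeA and 58.5 CPM in mPFC, with overlapping ranges (129 to 859 and 33.6 to 403 CPM). Prkcd had medians of 12.3 and 6.98 CPM, and its ranges overlapped as well (7.89 to 25.8 and 1.92 to 14.3 CPM). Slc17a7 was near level, at medians of 264 CPM in CeA and 276 CPM in mPFC. Spike-in RNA, a synthetic standard, exceeded 1000 counts in 12 of the 53 libraries, 3 in each of the 4 dependent groups, and the other libraries had at most 316 counts of it in CeA and 69 in mPFC. Values below are CPM (counts per 1000000 of the library size scaled by TMM within the region). Genes counted as called where edgeR's quasi-likelihood test, adjusted by Benjamini-Hochberg over all genes fitted, gave a p under 0.05. The labels name no litter or batch within a region, so p-values measure the spread between these mice.

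PLX5622 lowered some cathepsins and left others within the spread between mice. The labels dependent and non-dependent are called histories below. Averaged over both histories 4 of 9 tested genes fell in CeA (Ctss, Ctsc, Ctsz and Cst3). In mPFC 5 of 9 fell (Ctss, Ctsc, Ctsz, Ctsh and Cst3), and none rose in either region. Over all genes tested 0.665% of 11721 fell in CeA and 1.05% of 12331 fell in mPFC. The median log2 fold change of the 9 genes was -0.32 in CeA and -0.28 in mPFC, against medians of -0.0026 and 0.0047 over all genes. Ctsd was too low to test, and Ctss in both regions and Ctsc in CeA passed the filter on low counts only through control libraries. With the 12 spike-in libraries left out, which leaves 1 PLX5622 dependent library in CeA, Ctss was the only one of the 4 genes called there over both histories. The log2 fold changes were then -0.68 for Ctsz (edgeR quasi-likelihood, adjusted p = 0.284, against -0.74 with all libraries), -1.38 for Ctsc (adjusted p = 0.123, against -0.998) and -0.14 for Cst3 (adjusted p = 0.982, against -0.32). Fewer microglia and less RNA per microglial cell cannot be told apart in whole tissue.

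**Figure D1:**
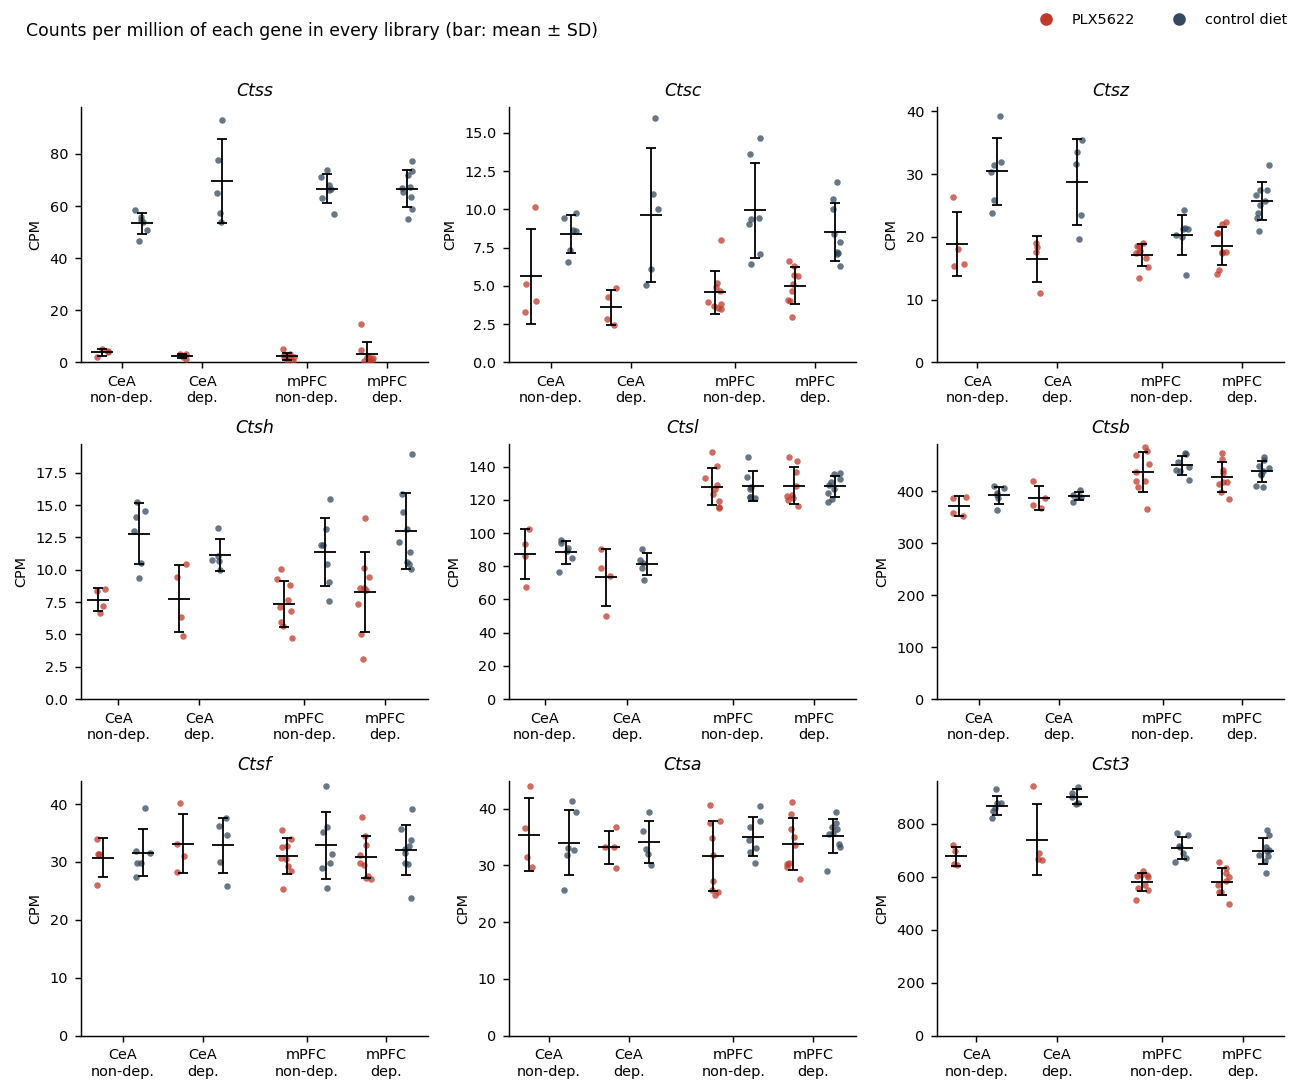
Each panel shows 1 gene, with CPM on a linear axis that starts at 0 and 1 point per library. The mean ± SD of each of 8 groups is drawn, with PLX5622 (red) left of control diet (blue) within each region and history. The PLX5622 points of Ctss lie at or below 14.8 CPM and its control points at or above 46.5 CPM, while the points of Ctsb, Ctsf and Ctsa overlap between diets in every region and history.

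Ctss, which encodes cathepsin S, the cysteine protease of antigen-presenting cells that trims the invariant chain of class II molecules, lay on chromosome 3 (95526786 to 95556403, GRCm38). In CeA it was at 5.06, 4.49, 1.96 and 4.00 CPM in the 4 PLX5622 non-dependent libraries, against a lowest value of 46.5, a median of 54.1 and a highest value of 58.4 CPM in the control non-dependent libraries. In dependent mice it was at 3.07, 1.95, 3.42 and 1.41 CPM with PLX5622, against 57.5, 93.1, 65.0, 53.7 and 77.7 CPM on control diet. The diets did not overlap in either history, and the PLX5622 values rest on 2 to 7 counts per library. The log2 fold change was -3.76 ± 0.23 (SE) in non-dependent mice (edgeR quasi-likelihood, adjusted p = 1.72e-15) and -4.76 ± 0.25 in dependent mice (adjusted p = 2.95e-17). These SE are derived from the F value of the test, and for a large fall to so few counts they can be too small.

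In mPFC Ctss was at 0.44 to 5.30 CPM (median 2.08) in PLX5622 non-dependent mice, against 57.0 to 73.9 CPM (median 66.6) in control non-dependent mice. Dependent mice had 0 to 14.8 CPM (median 1.70) with PLX5622, against 55.1 to 77.2 CPM (median 66.9) on control diet. Again no PLX5622 library reached a control library. One PLX5622 dependent library, number 8, had 0 counts of Ctss, which allows a level of up to 1.54 CPM at 3 counts. The log2 fold changes were -4.76 ± 0.28 and -4.38 ± 0.26 in non-dependent and dependent mice (edgeR quasi-likelihood, adjusted p = 4.32e-14 and 2.09e-14). The highest PLX5622 value, 14.8 CPM, was that of dependent library 30, and without it the fold change in dependent mice was -5.24. Averaged over histories 94.8% of Ctss counts were lost in CeA (95% interval 93.4% to 95.9%) and 95.8% in mPFC (94.5% to 96.8%). Both intervals rest on SE derived from the F value and may be too narrow.

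Ctss and the microglia markers were low and high in the same libraries. The sum of 18 markers, of which Trem2 and Itgam were at 0 counts in every library, was 17.3 to 30.4 CPM in PLX5622 non-dependent and 14.1 to 35.6 CPM in PLX5622 dependent CeA, against 286 to 396 and 340 to 462 CPM in the control groups of the same histories. In mPFC the sums were 14.6 to 36.3 and 11.1 to 78.1 CPM with PLX5622, against 307 to 353 and 308 to 355 CPM on control diet. Of the markers tested, 14 of 14 fell in CeA with a median loss of 94.6%, and 14 of 15 fell in mPFC with a median loss of 95.3%. Over all genes tested 0.665% fell in CeA and 1.05% in mPFC. Most of these markers passed the filter on low counts only through control libraries, which favours a fall among those tested. Over all PLX5622 libraries of CeA, Csf1r had 18 counts and Tmem119 had 5. The highest marker sum among all PLX5622 libraries, 78.1 CPM, was also that of mPFC dependent library 30.

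**Figure D2:**
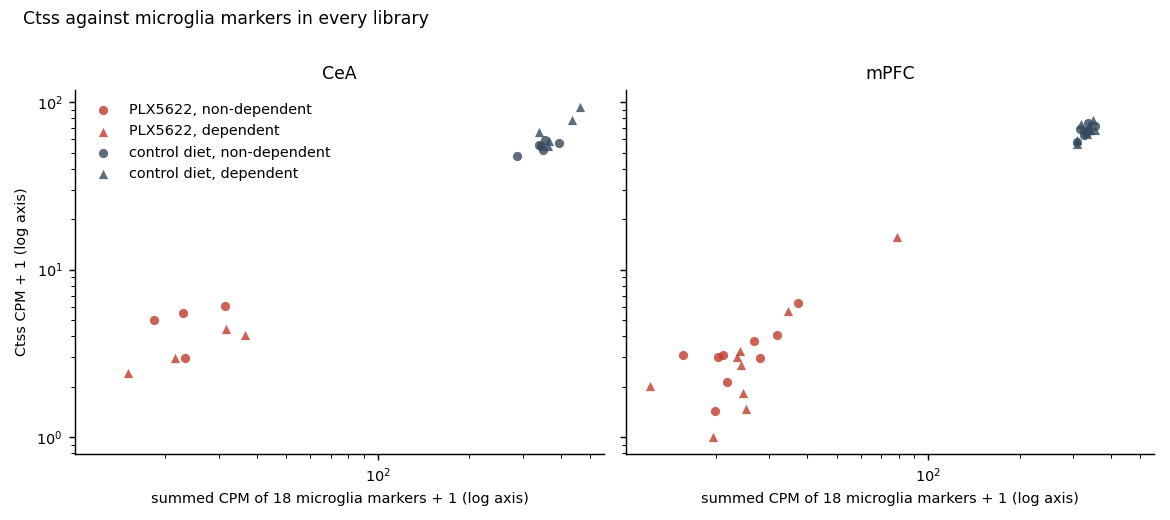
Each point is 1 library, with the summed CPM of 18 microglia markers plus 1 on the horizontal axis and Ctss CPM plus 1 on the vertical axis, both logarithmic, for CeA (left) and mPFC (right). The PLX5622 libraries (red) form a lower cluster and the control libraries (blue) an upper one, with mPFC dependent library 30 (Ctss 14.8 CPM, markers 78.1 CPM) between them.

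The genes whose log2 CPM was most like that of Ctss were Cx3cr1, Csf1r, Siglech, Fyb and Laptm5 over the 19 CeA libraries, with Pearson r between 0.975 and 0.984. Over the 34 mPFC libraries they were C1qb, Laptm5, C1qc, Tmem119 and Tyrobp, with r between 0.972 and 0.991. These values describe libraries that fall into a pair of diet clusters, so they mostly restate the diet difference. Within groups, where the diet difference is removed, the largest r among the 9 tested genes was 0.66 for Ctsl and Ctsh in CeA, and Ctss and Cst3 had r = -0.52 there and -0.33 in mPFC.

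Ctsc encodes cathepsin C, a dipeptidyl peptidase that activates serine proteases of leukocytes. In CeA it was at 10.1, 5.14, 3.27 and 4.00 CPM in PLX5622 non-dependent mice, against 6.53 to 9.74 CPM (median 8.61) in control non-dependent mice. Dependent mice had 2.46, 4.88, 4.28 and 2.83 CPM with PLX5622, against 11.0, 16.0, 10.0, 5.06 and 6.09 CPM on control diet. The diets overlapped in non-dependent mice, where PLX5622 library 13 was the highest of all 10 libraries, and did not overlap in dependent mice. Neither history alone passed the test in CeA (log2 fold change -0.58 ± 0.33 and -1.42 ± 0.38, edgeR quasi-likelihood adjusted p = 0.644 and 0.142), whereas their mean did (-0.998 ± 0.255, adjusted p = 0.0421). That call rests on 4 to 14 counts per PLX5622 library and was lost in 13 of 19 fits that left out 1 library, with adjusted p up to 0.123. It was kept without control non-dependent 16 or 17, PLX5622 non-dependent 13, control dependent 9 or 11, or PLX5622 dependent 7.

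In mPFC Ctsc was at 3.52 to 7.98 CPM (median 3.94) in PLX5622 non-dependent mice, against 6.44 to 14.6 CPM (median 9.35) in control non-dependent mice. It was at 2.94 to 6.61 CPM (median 5.11) in PLX5622 dependent mice, against 6.28 to 11.8 CPM (median 7.85) in control dependent mice. The diets overlapped in both histories. Ctsc fell by 1.14 ± 0.20 on the log2 scale in non-dependent mice and by 0.76 ± 0.19 in dependent mice (edgeR quasi-likelihood, adjusted p = 9.48e-05 and 0.0200). The call in dependent mice was lost without control dependent library 26 (adjusted p = 0.0819), control dependent library 28 (0.0563) or PLX5622 dependent library 38 (0.0716). The loss averaged over histories was 49.9% in CeA (28.4% to 65.0%) and 48.2% in mPFC (37.4% to 57.2%).

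Ctsz encodes cathepsin Z (also called cathepsin X), a carboxypeptidase found on the surface of and secreted by myeloid cells. In CeA it was at 18.1, 26.3, 15.7 and 15.3 CPM in PLX5622 non-dependent mice, against 23.8 to 39.3 CPM (median 30.9) in control non-dependent mice. Dependent mice had 19.1, 17.6, 11.1 and 18.4 CPM with PLX5622, against 19.7, 35.4, 23.6, 31.6 and 33.5 CPM on control diet. PLX5622 non-dependent library 23 reached into the control range, and in dependent mice the diets did not overlap. The mean over histories fell by 0.74 ± 0.14 on the log2 scale (edgeR quasi-likelihood, adjusted p = 0.000938), a loss of 40.0% (27.2% to 50.6%). Each history alone missed the threshold (-0.68 ± 0.19 and -0.80 ± 0.20, adjusted p = 0.0730 and 0.0781). The non-dependent difference was called without control non-dependent 20 (adjusted p = 0.0391) or PLX5622 non-dependent 23 (0.0191), and the dependent one without PLX5622 non-dependent 23 (0.0480) or control dependent 1 (0.0186).

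Ctsz in mPFC was at 13.5 to 19.1 CPM (median 17.6) in PLX5622 non-dependent mice, against 13.9 to 24.3 CPM (median 21.2) in control non-dependent mice. In dependent mice it was at 14.2 to 22.4 CPM (median 17.6) with PLX5622, against 20.9 to 31.4 CPM (median 25.7) on control diet. The diets overlapped in both histories. It fell in dependent mice (-0.47 ± 0.10, edgeR quasi-likelihood adjusted p = 0.00347) and over both histories (-0.35 ± 0.08, adjusted p = 0.00264, a loss of 21.7% with an interval of 13.0% to 29.6%), and the value in non-dependent mice was -0.24 ± 0.11 (adjusted p = 0.920).

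Ctsh encodes cathepsin H, an aminopeptidase. In CeA it was at 7.23, 8.35, 8.51 and 6.66 CPM in PLX5622 non-dependent mice, against 9.33 to 15.2 CPM (median 13.5) in control non-dependent mice, with no overlap. In dependent mice it was at 10.4, 4.88, 9.41 and 6.36 CPM with PLX5622, against 11.0, 13.2, 10.0, 10.7 and 10.7 CPM on control diet, where PLX5622 library 6 entered the control range. The mean over histories in CeA was -0.60 ± 0.17 on the log2 scale and missed the threshold (edgeR quasi-likelihood, adjusted p = 0.0979), with a difference in counts of 34.1% (16.1% to 48.3%).

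In mPFC Ctsh was at 4.68 to 10.0 CPM (median 7.13) in PLX5622 non-dependent mice, against 7.61 to 15.4 CPM (median 11.9) in control non-dependent mice. Dependent mice had 3.09 to 14.0 CPM (median 8.57) with PLX5622, against 10.0 to 18.9 CPM (median 12.1) on control diet. Both pairs of ranges overlapped. Ctsh fell over both histories (-0.64 ± 0.13, edgeR quasi-likelihood adjusted p = 0.000759), a loss of 35.7% (23.3% to 46.1%). In dependent mice alone it passed narrowly (-0.63 ± 0.17, adjusted p = 0.0463), and in 16 of 34 fits that left out 1 library it did not, with adjusted p between 0.0501 and 0.178. Those libraries were control non-dependent 35, PLX5622 non-dependent 13, 23 and 46, control dependent 1, 10, 26, 27 and 28, and PLX5622 dependent 6, 8, 30, 37, 38, 39 and 40.

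The other cysteine cathepsins did not pass the test in any diet comparison. Ctsb encodes cathepsin B, which cuts inside proteins and also removes dipeptides from their C-terminal end. Ctsl encodes cathepsin L, a broad lysosomal endopeptidase. Ctsb lay between 352 and 419 CPM in the 8 PLX5622 libraries of CeA, against 363 to 410 CPM in the 11 control libraries, and between 365 and 484 CPM with PLX5622 in mPFC, against 408 to 473 CPM on control diet. Its mean loss was 3.13% in CeA with an interval of -3.62% to 9.44%, and 2.76% in mPFC with an interval of -1.61% to 6.94%. Ctsl lay between 49.8 and 102.7 CPM with PLX5622 in CeA, against 71.7 to 95.7 CPM on control diet, and between 114.99 and 148.8 CPM with PLX5622 in mPFC, against 118.5 to 145.7 CPM on control diet. Its mean loss was 4.96% in CeA (-6.88% to 15.5%) and -0.074% in mPFC (-5.47% to 5.05%). Ctsf, the gene of the less studied cathepsin F, had a mean loss of 0.80% in CeA (-14.6% to 14.1%) and 4.62% in mPFC (-4.62% to 13.1%).

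Ctsa encodes cathepsin A, the serine carboxypeptidase that also shields beta-galactosidase and neuraminidase from degradation in the lysosome. It lay between 29.5 and 44.0 CPM in PLX5622 libraries of CeA, against 25.7 to 41.4 CPM on control diet, and its mean loss was -0.14% (-15.7% to 13.4%). In mPFC it lay between 24.8 and 41.2 CPM with PLX5622, against 29.0 to 40.4 CPM on control diet, with a mean loss of 7.36% (-1.62% to 15.5%). The 3' end of Ctsa overlaps Pltp on the opposite strand over 18.6% of its span, and that of Ctsb overlaps Fdft1 over 3.30%. The sources used here do not state whether counting used strand, so reads over these stretches cannot be assigned with certainty.

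Ctsd, which encodes the aspartic protease cathepsin D, could not be assessed. The files hold 2 counts of it over the 19 CeA libraries and 4 over the 34 mPFC libraries, never more than 1 in a library. In the GENCODE annotation of GRCm38 the gene Gm49369 (chromosome 7, 142371096 to 142382667) lies on the same strand and covers 55.7% of Ctsd (chromosome 7, 142375911 to 142388038), including its 3' end. Gm49369 is listed in both regions and also has 0 counts. Reads that the submitters' counting set aside as ambiguous made up 2.25% to 2.43% of a CeA library and 2.299% to 2.382% of an mPFC library, and which genes they came from was not tested. The near-absence of Ctsd counts is therefore no measure of its expression.

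Cst3, the inhibitor of the family, lay on chromosome 2 (148871722 to 148875692, GRCm38) and rested on 684 to 1854 counts per CeA library. In CeA it was at 648, 645, 719 and 698 CPM in PLX5622 non-dependent mice, against 822 to 931 CPM (median 868) in control non-dependent mice, with no overlap. In dependent mice it was at 690, 667, 664 and 942 CPM with PLX5622, against 917, 877, 904, 878 and 941 CPM on control diet, and PLX5622 library 29 stood level with the highest control library. It fell in non-dependent mice (-0.36 ± 0.08, edgeR quasi-likelihood adjusted p = 0.00932), a call lost without PLX5622 non-dependent library 13 (adjusted p = 0.0514) or 23 (0.0633). In dependent mice it was -0.28 ± 0.08 (adjusted p = 0.197), and without library 29 it was -0.42 (adjusted p = 0.000764). The mean over histories fell by 0.32 ± 0.06 (adjusted p = 0.000340), a loss of 20.0% (13.4% to 26.1%).

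Cst3 in mPFC was at 512 to 620 CPM (median 599) in PLX5622 non-dependent mice, against 656 to 765 CPM (median 713) in control non-dependent mice, again without overlap. In dependent mice it was at 496 to 656 CPM (median 586) with PLX5622, against 615 to 779 CPM (median 697) on control diet, with some overlap. It fell by 0.29 ± 0.05 on the log2 scale in non-dependent mice (edgeR quasi-likelihood, adjusted p = 2.30e-05) and by 0.26 ± 0.05 in dependent mice (adjusted p = 5.55e-05). The loss over both histories was 17.5% (13.6% to 21.2%). Of markers of astrocytes, which also make cystatin C, none of 11 was lower in either region, where 0.665% and 1.05% of all genes were lower. Gfap rose in mPFC (0.65 ± 0.14, edgeR quasi-likelihood adjusted p = 0.00789), where 11 of 12331 genes were higher. The part of astrocytes in the loss of Cst3 was not tested.

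Within single histories the counts of genes called were 2 of 9 in CeA of non-dependent mice and 1 of 9 in CeA of dependent mice, all lower, where 0.486% and 0.401% of all genes were lower. In mPFC they were 3 of 9 in non-dependent and 5 of 9 in dependent mice, where 0.616% and 0.868% of all genes were lower. Without the spike-in libraries the count in mPFC of dependent mice was 2 (Ctss and Cst3). The log2 fold changes of the other 3 were then -0.78 for Ctsc (edgeR quasi-likelihood, adjusted p = 0.126, against -0.76 with all libraries), -0.44 for Ctsz (0.114, against -0.47) and -0.59 for Ctsh (0.460, against -0.63). PLX5622 and control groups did not overlap, with PLX5622 lower, for 3, 3, 2 and 1 of the 9 genes in the same order. Of all genes 1.16%, 1.4%, 0.535% and 0.462% did so.

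**Figure D3:**
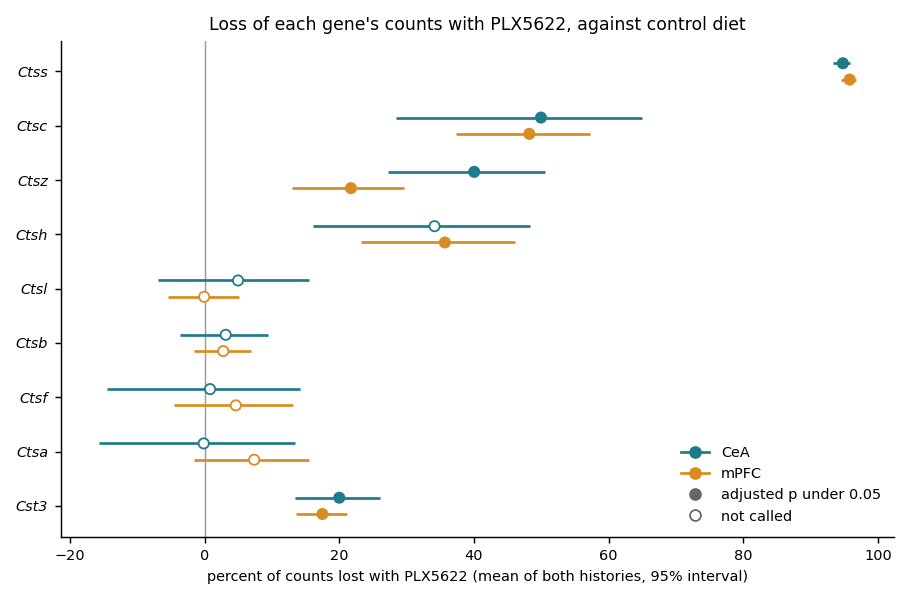
For each gene the percent of counts lost with PLX5622, from the fold change averaged over both histories, is shown with its 95% interval. CeA (blue) lies above mPFC (orange), and points are filled where the adjusted p was under 0.05. Ctss stands at 94.8% and 95.8%, Ctsc, Ctsz, Ctsh and Cst3 lie between 17.5% and 49.9%, and the other 4 genes lie between -0.14% and 7.36%.

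In CeA the order of loss was Ctss, Ctsc, Ctsz, Ctsh, Cst3, Ctsl, Ctsb, Ctsf and Ctsa, and in mPFC it was Ctss, Ctsc, Ctsh, Ctsz, Cst3, Ctsa, Ctsf, Ctsb and Ctsl. Only the interval of Ctss stood clear of that of its neighbour in each region, and every other pair of neighbours in either order had overlapping intervals. A percent lost is a share of the tissue's counts and is not a measured share of any cell type.

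The promoters of genes that fell together and of genes that did not were searched for short motifs, which were chosen after the values were seen. Of the 10 genes 8 had a promoter of 300 bases in the RefSeq table (GRCm38.p6), and Ctsb and Ctsh had none. The motif GAGGAAGT, which the myeloid factor PU.1 is known to bind, was searched on both strands. It was absent from the promoters of Ctsz and Cst3, which also fell in both regions. It was present in the promoters of Ctss and Ctsc and in 3.20% of 32851 promoters. The windows below run 5′ to 3′ on the gene's own strand, which is the plus strand for both, and the capitals mark the motif read from the other strand. Ctss is at chr3:95526774-95526801 and Ctsc at chr7:88277924-88277951.
Ctss: atgaaagttcACTTCCTCattgtggatg
Ctsc: tcactaactaACTTCCTCaggccacctc

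The motif GTCACGTG is an extended form of the E-box CACGTG recognised by the lysosomal regulator TFEB. It was present in the promoters of Ctsa and Ctsd, of which Ctsd was too low to test, and in 2.25% of all promoters. The shorter CACGTG, which every GTCACGTG contains, was present in Ctsa, Ctsd, Ctsl and Ctsf and in 7.15% of all promoters. TGACTCA, bound by AP-1, was in none of the 8 genes and in 5.20% of promoters. Ctsa is on the plus strand at chr2:164833749-164833776 and Ctsd on the minus strand at chr7:142387908-142387935, with the capitals marking the longer motif, read from the other strand in Ctsd. A match says only that the letters are present in this window.
Ctsa: tgagcaaactGTCACGTGatgcagatgc
Ctsd: gcccgcgtctCACGTGACccgttgaggg

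Among other lysosomal genes, Grn, which encodes the lysosomal cofactor progranulin, fell by 0.44 ± 0.08 on the log2 scale in mPFC (edgeR quasi-likelihood, adjusted p = 0.000115) and was at -0.42 ± 0.13 in CeA (adjusted p = 0.160). The abundant Psap, precursor of the saposins, was at 0.01 ± 0.05 in CeA and -0.0040 ± 0.0300 in mPFC, and Ids, iduronate sulfatase, was at 0.08 ± 0.06 and 0.0061 ± 0.0279.

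Of lysosomal membrane proteins and proton pump subunits 1 of 22 fell in CeA and 2 of 21 in mPFC, where 0.665% and 1.05% of all genes fell. Laptm5, a lysosomal membrane protein of blood-lineage cells, fell in CeA (-4.198 ± 0.244) and in mPFC (-4.376 ± 0.177) (edgeR quasi-likelihood, adjusted p = 1.75e-16 and 3.16e-28). It passed the filter on low counts only through control libraries, with 16 counts over the PLX5622 libraries of CeA and 41 over those of mPFC. Cd164, a sialomucin, fell by 0.25 ± 0.05 in mPFC (edgeR quasi-likelihood, adjusted p = 0.00109). The pump subunits Atp6v1a and Atp6v1b2 were at 0.08 ± 0.05 and 0.07 ± 0.05 in CeA and at 0.04 ± 0.03 and -0.0022 ± 0.0278 in mPFC. Of genes that sort lysosomal enzymes or regulate their transcription none of 12 was called in CeA and none of 13 in mPFC, and Sort1, the sorting receptor sortilin, was at 0.07 ± 0.06 and 0.0085 ± 0.0283.

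Among proteases outside the 9, Lgmn, which encodes the asparaginyl endopeptidase legumain that processes several cathepsins, fell by 0.52 ± 0.09 in CeA and by 0.45 ± 0.05 in mPFC (edgeR quasi-likelihood, adjusted p = 0.000350 and 1.09e-11), losses of 30.0% and 26.6%. Ctso was at 0.21 ± 0.17 in CeA and 0.09 ± 0.08 in mPFC, Ctsk at 0.15 ± 0.18 in mPFC, and Ctsw, Ctse and Ctsg had at most 6 counts over all libraries of a region. Of the other cystatins only Cstb, the cytosolic inhibitor cystatin B, had counts enough to test, at 0.0066 ± 0.1602 in CeA and 0.03 ± 0.07 in mPFC. Cst7, which encodes cystatin F of immune cells, had 0 counts with PLX5622 and 4 on control diet in CeA, and 1 and 10 in mPFC. Of class II antigen presentation, the pathway cathepsin S serves, only H2-DMa could be tested, at 0.0067 ± 0.1676 and 0.03 ± 0.12. Cd74, the invariant chain, had 1 to 3 counts per PLX5622 library of CeA, against 6 to 15 in control non-dependent and 6 to 80 (median 7) in control dependent libraries, where library 2 held the 80 counts. In mPFC it had 0 to 9 counts per PLX5622 library and 1 to 13 per control library.

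**Figure D4:**
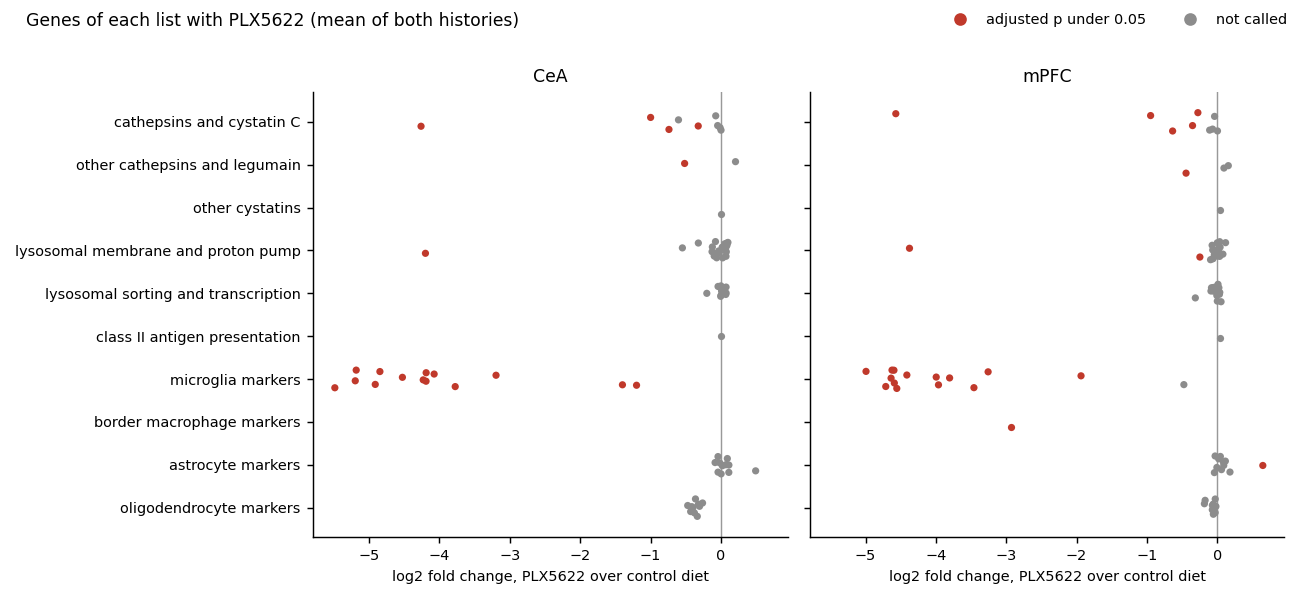
Each point is 1 tested gene, with the log2 fold change of PLX5622 over control diet averaged over both histories on the horizontal axis and gene lists on the vertical axis, for CeA (left) and mPFC (right), red where the adjusted p was under 0.05. Laptm5 is the red point of the lysosomal membrane list at -4.198 in CeA and -4.376 in mPFC, and 14 microglia markers in each region are red and below 0.

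Markers of oligodendrocytes, of striatal neurons, and of choroid plexus and meninges leaned to one side between diets in CeA without passing the test. The ranges of their sums overlapped between diets in both histories. Genes of a list can vary together, so the counts of signs below are descriptions. The median log2 fold change over all genes was -0.0026 in CeA and 0.0047 in mPFC. Oligodendrocyte markers were below 0 for 10 of 10 genes, with a median log2 fold change of -0.37 in CeA and -0.06 in mPFC. Their summed level was 1844 to 3545 CPM in PLX5622 non-dependent and 2280 to 3387 CPM in PLX5622 dependent CeA, against 2425 to 3705 and 2613 to 4472 CPM in the control groups. Striatal neuron markers were below 0 for 9 of 9 genes in CeA (median -0.65) and 0 of 8 in mPFC (median 0.23). Their sum was 744 to 1317 and 1288 to 1876 CPM with PLX5622, against 833 to 3397 and 1272 to 2995 CPM on control diet in CeA. Choroid plexus and meninges markers were above 0 for 9 of 9 genes in CeA (median 0.45), with sums of 1567 to 4635 and 581 to 2207 CPM with PLX5622, against 501 to 2287 and 85.3 to 2655 CPM on control diet. Border macrophage markers summed to 1.33 to 13.0 and 0.98 to 2.83 CPM with PLX5622 in CeA, against 7.27 to 21.8 and 4.73 to 21.5 CPM on control diet. Of these only F13a1 could be tested, in mPFC (-2.93 ± 0.28, edgeR quasi-likelihood adjusted p = 1.90e-12). It had 23 counts over the PLX5622 libraries there and 170 over the control libraries, and passed the filter on low counts only through the latter. The part of these cells in the results for the cathepsins and Cst3 was not tested.

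Ethanol dependence was not detected to change any of the genes. None of 9 was called by edgeR's quasi-likelihood test in either diet of either region, and DESeq2 called none. The share of all genes called was 0.00853% in CeA on control diet, 0.0171% in CeA with PLX5622, 0.00811% in mPFC on control diet and 0% in mPFC with PLX5622. At an unadjusted p under 0.05 there was 1 gene of 9 in CeA on control diet, 1 in mPFC on control diet and 0 with PLX5622 in either region, where 6.12%, 5.9%, 5.95% (CeA, PLX5622) and 5.9% (mPFC, PLX5622) of all genes passed it.

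The gene in CeA was Ctss on control diet, at 57.5, 93.1, 65.0, 53.7 and 77.7 CPM in dependent mice, against 46.5 to 58.4 CPM (median 54.1) in non-dependent mice. The groups overlapped, and the dependent libraries varied more (SD 16.1 CPM, against an SD of 4.2 CPM). Its log2 fold change was 0.39 ± 0.12 (edgeR quasi-likelihood, unadjusted p = 0.00224, adjusted p = 0.477). The summed microglia markers in the same libraries were 340 to 462 CPM (median 365) in dependent and 286 to 396 CPM (median 346) in non-dependent mice. Library 2, with the highest Ctss, also had the highest marker sum and 21.5 CPM of border macrophage markers. In control non-dependent mice, with Ctss at most 58.4 CPM, border macrophage markers summed to 7.27 to 21.8 CPM. The part of either cell type in the Ctss difference was not tested. In mPFC Ctss differed between histories by 0.0062 ± 0.1589 on control diet, with an interval of -0.32 to 0.33.

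The gene in mPFC was Ctsz on control diet, at 20.9 to 31.4 CPM (median 25.7) in dependent mice, against 13.9 to 24.3 CPM (median 21.2) in non-dependent mice, with overlap. Its log2 fold change was 0.33 ± 0.11 (edgeR quasi-likelihood, unadjusted p = 0.00280, adjusted p = 0.640), and in CeA it was -0.05 ± 0.16. Cst3 differed by 0.06 (interval -0.09 to 0.20) in CeA and by -0.02 (-0.12 to 0.07) in mPFC on control diet. Ctsb differed by -0.0043 (-0.13 to 0.12) in CeA and by -0.04 (-0.13 to 0.05) in mPFC on control diet. With PLX5622 the largest difference in either region was that of Ctsc in CeA, -0.67 ± 0.44 (adjusted p = 0.904).

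The diet effect was not detected to differ between dependent and non-dependent mice. The interaction was called for none of 9 genes by edgeR or DESeq2 in either region, where 0% of all genes were called, and 1 gene in CeA and 0 in mPFC had an unadjusted p under 0.05, which 4.56% and 2.85% of all genes had. That gene was Ctss, whose diet effect in CeA was -4.76 in dependent and -3.76 in non-dependent mice, a difference of -1.01 ± 0.50 on the log2 scale (edgeR quasi-likelihood, unadjusted p = 0.0497, adjusted p = 0.993). In mPFC the difference was 0.38 ± 0.54 (adjusted p = 1.00), and without PLX5622 dependent library 30 it was -0.49. For Ctsc it was -0.84 ± 0.52 in CeA and 0.38 ± 0.28 in mPFC.

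Some of the genes differed between regions within each diet. On control diet 4 of 9 were called, 2 lower and 2 higher in CeA, where 59.3% of 13042 genes were called. With PLX5622 3 of 9 were called, 2 lower and 1 higher, where 55.4% were called. The regions were read on different instruments, and region and instrument cannot be told apart.

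**Figure D5:**
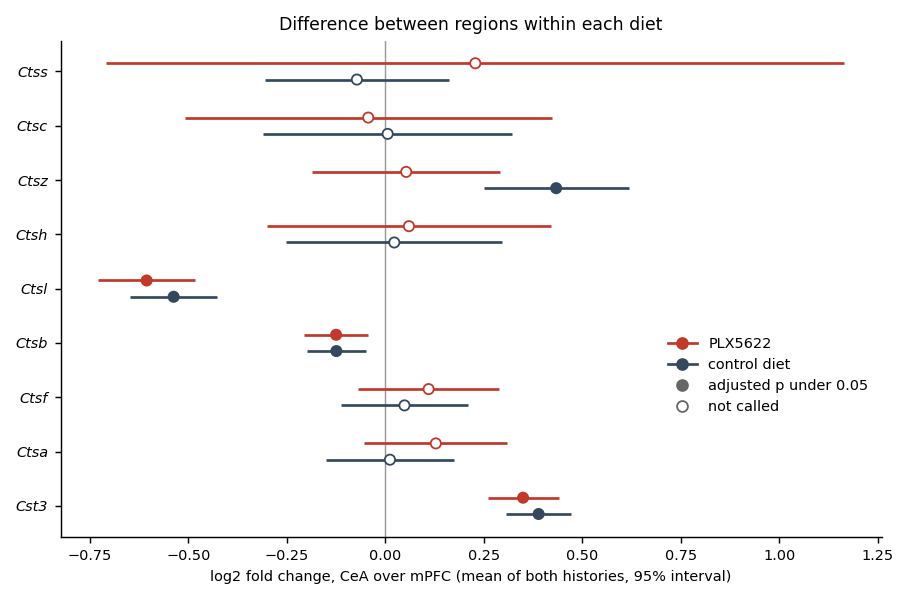
For each gene the log2 fold change of CeA over mPFC, averaged over both histories, is shown with its 95% interval for PLX5622 (red) above control diet (blue), filled where the adjusted p was under 0.05. Ctsl lies at -0.61 and -0.54 and Cst3 at 0.35 and 0.39, while Ctsz lies at 0.05 with PLX5622 and 0.43 on control diet.

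Ctsl was lower in CeA, at 67.3 to 102.7 CPM in PLX5622 non-dependent and 49.8 to 90.4 CPM in PLX5622 dependent CeA, against 114.99 to 148.8 and 116.03 to 146.03 CPM in the same groups of mPFC. On control diet it was at 76.4 to 95.7 and 71.7 to 90.3 CPM in CeA, against 121.2 to 145.7 and 118.5 to 136.4 CPM in mPFC. Every CeA library lay below every mPFC library, with CPM scaled within each region. The fold change in the joint fit was -0.61 ± 0.06 with PLX5622 and -0.54 ± 0.06 on control diet (edgeR quasi-likelihood, adjusted p = 7.30e-14 and 7.33e-14).

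Cst3 was higher in CeA, by 0.35 ± 0.05 with PLX5622 and 0.39 ± 0.04 on control diet (edgeR quasi-likelihood, adjusted p = 3.68e-10 and 3.43e-13), and on control diet every CeA library (822 CPM or more) stood above every mPFC library (779 CPM or less). Choroid plexus and meninges markers were higher in CeA as well, though ranges overlapped in control dependent mice. On control diet their sums averaged 1547 (non-dependent) and 1249 CPM (dependent) in CeA, against 58.4 and 68.2 CPM in mPFC. With PLX5622 they averaged 2760 and 1505 CPM in CeA, against 71.9 and 65.8 CPM in mPFC. Astrocyte marker sums averaged higher in CeA too, at 4103 (non-dependent) and 3982 CPM (dependent) on control diet, against 3515 and 3587 CPM in mPFC. With PLX5622 the astrocyte sums averaged 3926 and 4288 CPM in CeA, against 3580 and 3575 CPM in mPFC. Their ranges overlapped in control dependent and PLX5622 non-dependent mice. The part of any of these cells in the Cst3 difference between regions was not tested. Ctsz was higher in CeA on control diet (0.43 ± 0.09, adjusted p = 3.73e-05), whereas with PLX5622 the difference was 0.05 ± 0.12 (adjusted p = 0.732). Ctsb was lower in CeA by a small margin, at -0.13 ± 0.04 with PLX5622 and -0.12 ± 0.04 on control diet (adjusted p = 0.00679 and 0.00293), and with the spike-in libraries left out the PLX5622 value was -0.07 (adjusted p = 0.397). Mice were sampled in both regions, and with a replicate block for the 15 mice measured in each the control diet value of Ctsb was -0.11 (adjusted p = 0.0818). Ctss differed by 0.23 ± 0.47 with PLX5622 and by -0.07 ± 0.12 on control diet, and Ctsc, Ctsh, Ctsf and Ctsa were not called in either diet.

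The diet effect itself was not detected to differ between regions. DESeq2 called none of the genes, but it gave an adjusted p for only 4038 genes here, against 13042 by edgeR. Some of the 9 may therefore have had none. By edgeR none of 9 genes was called, where 0.0537% of all genes were called, and 1 of 9 had an unadjusted p under 0.05, against 8.33% of all genes. This was Ctsz, whose loss was 40.0% in CeA and 21.7% in mPFC, a difference of -0.38 ± 0.15 on the log2 scale (edgeR quasi-likelihood, unadjusted p = 0.0131, adjusted p = 0.455). For Ctss the difference was 0.30 ± 0.48 and for Cst3 -0.04 ± 0.06, with an interval of -0.16 to 0.08. The genes whose log2 CPM was most like that of Ctsz were Arhgap45, Il6ra, Ncf1, Cttnbp2nl and Laptm5 over the CeA libraries (r between 0.823 and 0.851), and Tyrobp, BC005537, Cd9, Il6ra and Entpd1 over the mPFC libraries (r between 0.691 and 0.733). For Cst3 they included Ncf1, Lair1, Sat1 and Anxa3 in CeA (r between 0.815 and 0.825), and Sparc, Cd53, Fcgr3 and Rnase4 in mPFC (r between 0.810 and 0.843).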

How the data were processed

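Per the labels' protocols, RNA of CeA punches and dissected mPFC was fragmented and copied with a switching oligonucleotide, and single-end reads came from a different instrument for each region. The authors deposited raw counts per Ensembl gene, 1 library per mouse and region, with no normalization. Per the submitters' processing notes the tools included Bowtie2 2.3.4.3, HTSeq 0.11.0 and DESeq2 1.10.1 with build mm10 (GRCm38.p6), and their settings are not among the notes used here. The 92 spike-in and 5 summary entries stayed out of library sizes and tests, and 71.6% to 73.4% of CeA reads and 74.1% to 75.5% of mPFC reads lay in genes. From the counts, edgeR 4.0.16 in R 4.3.3 gave two-sided quasi-likelihood tests (TMM, filterByExpr with a minimum count of 10 and a minimum total of 15, robust spread), with 1 coefficient per group and 1 fit per region or over both. SE was the size of the log2 fold change divided by the root of its F value, intervals are 95% t intervals, and a percent lost is 100 times 1 minus the fold change. Such SE and intervals can be too narrow for large falls to few counts, such as those of Ctss, Laptm5 and F13a1. The tests were also run on counts simulated with the groups and the spread of the same fits. Such counts cannot show structure beyond the groups, and no conclusion is drawn from them. Alternatives were other size factors, no filter, DESeq2 1.42.0, no robust spread, only the groups compared, spike-in libraries left out, each library left out, and a replicate block. Numbers pair mice between regions where diet and history also match. Number 16 does not match and was never paired, and the deviations of the 15 pairs correlated at -0.035 to 0.081. The genes, lists and motifs were chosen with earlier results of these data known. The text names all 10 genes, up to 3 called genes of each other list, up to 2 uncalled abundant genes of the lysosomal lists, the 4 microglial genes that check depletion, and the 5 genes most like Ctss, Ctsz and Cst3 (log2 CPM with a prior count of 2). Genes named outside this rule (Penk, Tbr1, Cst7, Ctsw, Ctse, Ctsg and Cd74 among them) were chosen after their values were seen. One gene that the rule names, and the counts of its list, are not reported here.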

Additional observations from a re-analysis of the deposited data

Results flagged for a closer look

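Within groups of 4 to 9 libraries, 4 of 72 combinations of gene and group had 1 library set far apart from the others, and chance gives about 1 in 20. Ctss was at 14.8 CPM in mPFC PLX5622 dependent library 30, and the next highest of that group was at 4.67 CPM. Cst3 was at 942 CPM in CeA PLX5622 dependent library 29, and the other 3 libraries were at 664 to 690 CPM. Ctsc was at 7.98 CPM in mPFC PLX5622 non-dependent library 46, above a group median of 3.94 CPM. Ctsz was low at 13.9 CPM in mPFC control non-dependent library 17, below a group median of 21.2 CPM.

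Counts of spike-in RNA, outside the gene counts used, exceeded 1000 in 12 of 53 libraries, all from dependent mice. They numbered at least 11745 in CeA and 21989 in mPFC, against at most 316 and 69 in the other libraries.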

How the results depend on the processing

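Apart from leaving out 1 library, the number of the 9 genes called moved by over 1.5 times in 3 comparisons. In CeA of dependent mice it was 3 with no filter on low counts, against 1. With the spike-in libraries left out it was 1 in CeA over both histories, against 4, and 2 in mPFC of dependent mice, against 5. That setting leaves 1 PLX5622 dependent library in CeA, number 29, assumed to vary like the other groups, and Cst3 there was at 0.08 in dependent mice (adjusted p = 1.00) and -0.14 over both histories (adjusted p = 0.982), while Ctss was at -5.73 and -4.74. Leaving out 1 library at a time gave 1 to 3 calls in CeA of non-dependent mice, against 2, 1 to 2 in CeA of dependent mice, against 1, and 3 to 5 in mPFC of dependent mice, against 5. In the comparisons between regions only CeA libraries were left out. The call of Ctsc in CeA over both histories was lost with DESeq2 (adjusted p = 0.0890) and without robust spread (0.0599), and that of Ctsh in mPFC of dependent mice with only the groups compared (0.118). The replicate block left 3 calls on each diet between regions, against 4 on control diet and 3 with PLX5622, and changed no call but that of Ctsb on control diet (-0.11, adjusted p = 0.0818). No called value changed sign under any of these settings. Values that were not called did so in 234 combinations of value and setting, each library left out counting as a setting.

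Over all genes, diet calls with no filter were 239, 94 and 292 in CeA (non-dependent, dependent, both), against 110, 47 and a sum of 78 lower and 27 higher, and 180, 228 and 328 of 26114 in mPFC, against 0.624%, 0.908% and 1.14% of 12331. DESeq2 called 0.828% and 1.03% of 17507 genes in mPFC of non-dependent and dependent mice and 246 of 20038 over both. With spike-in libraries left out 21 and 61 were called in CeA (dependent, both), and with only the groups compared 74 of 11717 in mPFC of dependent mice. For dependence, no filter gave 18 (control diet) and 10 (PLX5622) in CeA, against 1 and 2, and 10 and 8 in mPFC, against 1 and 0. For the difference of diet effects between regions, no filter gave 13, DESeq2 25 and spike-in libraries left out 2, against 7.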
